A study of Rattus norvegicus with 91 samples.

Results

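A set of 25 liver transcripts had a mean over 6-18 h near the control level in a rat methylprednisolone time course and a lower mean in its last samples. They were the 25 probe sets, one for each of 25 genes, that met a rule applied to 5122 eligible probe sets of the array (0.488%). Eligible probe sets carried 1 gene symbol and had a mean over all arrays of 7 or more on the scale used throughout, log2 of the array signal plus 32. A member had a mean of its 72, 96 and 168 h group means at least 0.8 below the controls, and a mean of its 6, 10, 13 and 18 h group means within 0.3 of them. Of the 140 eligible probe sets with so low a late mean, 113 were also more than 0.3 below control at 6-18 h, 25 were the members, and 2 were more than 0.3 above control there. Both differences chose the members, so they are described without a test. The early limit holds for the mean of 4 groups, and at single times members lay further off, from -1.39 to 0.75 at 6 h and from -1.12 to 0.81 at 13 h.

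Methylprednisolone is a man-made glucocorticoid, a ligand of the glucocorticoid receptor. The labels describe Wistar rats given 50 mg/kg and their liver RNA on 2 Affymetrix array designs. The long course, in which the members were chosen, had 11 groups of 4 arrays: controls labelled time 0, and treated groups at 6, 10, 13, 18, 24, 36, 48, 72, 96 and 168 h. The short course, on the other design, had 47 arrays: 4 controls and treated groups at 16 times between 0.25 and 72 h. The labels used here give no strain beyond Wistar, age, sex, route, schedule, vehicle or time of day, so whether dosing was single or repeated is not known from them. They do not say whether replicates are separate animals, so errors and p-values measure the spread between arrays, which may be technical. In whole liver, fewer cells of a type and less RNA per cell cannot be told apart.

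All long-course arrays had nearly the same trimmed mean signal. The hepatocyte markers that could be read, 9 of a list of 10 with albumin among them, were bright (summed signal 67550 to 116800 in the controls and 50790 to 130500 at 72-168 h), and none passed the test at 72-168 h. Arrays fell into 2 levels of the spiked-in bacterial control transcripts, 15 high and 29 low. The high arrays were replicate 4 of all 11 groups and 4 others, and the level moved with time: high arrays were 1 of 4 in the controls, 4 of 16 at 6-18 h, 4 of 12 at 24-48 h and 6 of 12 at 72-168 h. One array titled 96 h was described as 72 h in its label, and the title was used. The description of 48 h replicate 1 had the wording of the short course, and its title and array design were used.

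Glucocorticoids enter liver cells and bind their receptor, which then moves to the nucleus and raises or lowers the transcription of many metabolic genes. Products of those genes, and changes in insulin, lipids and pituitary hormones, can alter other transcripts later. The members cover several liver tasks: clearing drugs and reactive aldehydes, desaturating and oxidising fatty acids, making sterols, building extracellular matrix and keeping daily time.

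The start-site regions of the 3 members with the lowest late mean are shown because these genes met the same rule. They hold 250 bases before and 50 bases after the start site, come from RefSeq on build GRCr8, and run 5′ to 3′ on the gene's strand. Capitals mark matches to a GC box (Ephx1 and Fads2) or a CCAAT box (Aldh1a1). Ephx1 lies at chr13:95275803-95276102, minus strand. Aldh1a1 lies at chr1:227537370-227537669, plus strand. Fads2 lies at chr1:216171984-216172283, minus strand.
Ephx1: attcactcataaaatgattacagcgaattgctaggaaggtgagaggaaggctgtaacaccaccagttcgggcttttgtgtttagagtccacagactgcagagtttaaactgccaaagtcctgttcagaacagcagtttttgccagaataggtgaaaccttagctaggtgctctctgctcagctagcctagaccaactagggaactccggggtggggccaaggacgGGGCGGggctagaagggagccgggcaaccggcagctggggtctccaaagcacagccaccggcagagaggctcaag
Aldh1a1: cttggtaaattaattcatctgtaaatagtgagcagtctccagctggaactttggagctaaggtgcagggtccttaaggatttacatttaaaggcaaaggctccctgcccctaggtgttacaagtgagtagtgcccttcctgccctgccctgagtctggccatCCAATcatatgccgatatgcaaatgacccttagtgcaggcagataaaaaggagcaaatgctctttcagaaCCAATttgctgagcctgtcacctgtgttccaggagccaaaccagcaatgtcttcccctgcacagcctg
Fads2: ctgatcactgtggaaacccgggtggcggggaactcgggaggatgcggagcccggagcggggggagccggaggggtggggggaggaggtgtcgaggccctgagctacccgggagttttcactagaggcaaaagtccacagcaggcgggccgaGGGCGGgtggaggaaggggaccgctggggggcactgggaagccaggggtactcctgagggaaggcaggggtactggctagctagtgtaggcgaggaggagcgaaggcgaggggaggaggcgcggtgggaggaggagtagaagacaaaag
Such a region was found for 20 of the 25 members, and Bgn, Cyp4a1, Sqle, Enpp2 and Col3a1 had no entry. Altogether 10 motifs were searched on both strands, with overlaps allowed, in the members and in all 33469 regions of the table. CCAAT was in 11 of the 20 member regions (55%, against 37.5% of all regions), and the GC box GGGCGG in 10 (50%, against 33.1%). The D-box TTATGTAA, bound by the clock-driven factors of the Dbp family, was in the regions of Per2 and Ces1c (10%, against 0.893%). The sterol regulatory element TCACNCCAC was in that of Hmgn1 (5%, against 1.12%) and the E-box CACGTG in that of Nras (5%, against 6.42%). No member region held the glucocorticoid response element (0.439% of all regions), the STAT site TTCNNNGAA (8.87%), the HNF4 and PPAR direct repeat (0.0538%), the C/EBP site TTGCGCAA (0.17%) or the NF1 site (0.302%). A match is a description of letters in a 300-base window.

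Over the whole course the median member difference from control was -0.05 at 6 h and -0.10 at 18 h. It then moved to -0.42 at 24 h and -0.59 at 48 h, and in the late groups to -0.98 (72 h), -1.16 (96 h) and -1.06 (168 h). The median of all tested probe sets lay between -0.06 and -0.01 at every time. The rule used the 24-48 h window only in the mean level over all arrays, but the window shares the rule's controls. There 17 members were already more than 0.3 below control, 6 were within 0.3 of it, and Idi1 (0.31) and Sqle (0.35) were above. The members with the lowest 24-48 h means were Cyp2c12 (-1.38), Ephx1 (-1.30) and Bgn (-1.17). Members differed in where they were lowest: 72 h for 4, 96 h for 9, 168 h for 9, and other groups for the rest, with Bgn and Col3a1 at 36 h, and Per2 at 6 h. In the fit over all 11106 tested probe sets, 20 of the 25 passed an adjusted p of 0.05 as lower at 72-168 h, where 6.02% of probe sets did so. The rule used that contrast, and nothing is read from the count.

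**Figure D1:**
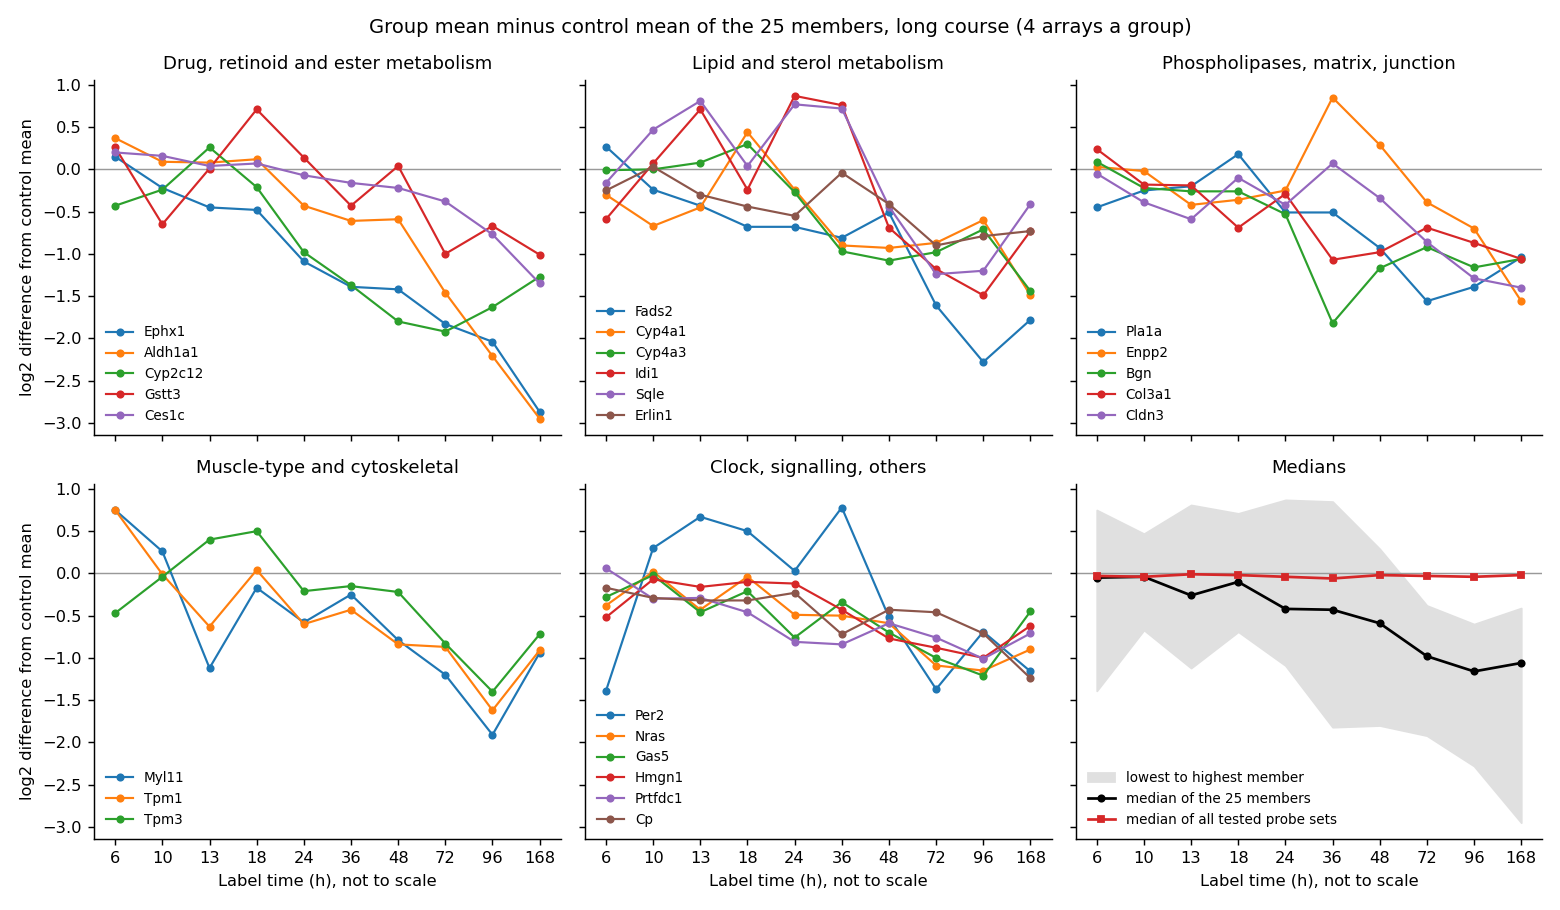
Group mean minus control mean (log2) of each member at the 10 treated times of the long course, grouped by role, with 4 arrays a group and times spaced evenly. The last panel gives the range and the median of the 25 members, which went from -0.05 at 6 h to -1.06 at 168 h, beside the median of all tested probe sets.

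Among the enzymes of drug, retinoid and ester metabolism, the microsomal epoxide hydrolase Ephx1, which opens reactive epoxides, had the lowest late mean. Its control signals were 2985, 3169, 3996 and 4969. At 6 h they were 4262, 4311, 5006 and 3087. By 48 h all 4 arrays lay between 1249 and 1533, and at 168 h they were 562.1, 376.3, 297.3 and 810. Every 24-48 h array lay below the lowest control, and so did 11 of the 12 late arrays. The exception was 72 h replicate 1 at 3270, against 429.3 to 882 in the rest of that group. The 72-168 h difference was -2.25 ± 0.31 (SE) on the log2 scale, and the late mean signal was 24.5% of the control mean.

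Aldh1a1, a cytosolic dehydrogenase that oxidises retinaldehyde to retinoic acid, was level for longer. Its controls were 983.1, 696, 1616 and 748.7, and its 16 arrays at 6-18 h ran from 638.8 to 1995 with a median of 1049. The 12 arrays at 24-48 h had a median of 696.2. At 96 h the signals were 260.8, 134.9, 180.3 and 169.2, and at 168 h they were 50.11, 81.88, 93.7 and 191.8. All 12 late arrays lay below all 4 controls, and the difference was -2.21 ± 0.32. The 168 h mean was 1.50 ± 0.39 below that of 72 h, which missed the threshold (adjusted p = 0.0591, 4 of 4 arrays below the 72 h mean). Without 168 h replicate 4 it passed, at -1.77 (adjusted p = 0.0118), and without 72 h replicate 4 at -2.01 (adjusted p = 0.00618). It also passed with an added constant of 16 (-1.62, adjusted p = 0.0495) and with array weights (-1.72, adjusted p = 0.0426).

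Ces1c, a carboxylesterase, was lower at each later time of the late window. Its controls ranged from 2847 to 4064 and its 6-18 h arrays from 3150 to 4808, so those groups overlapped. At 72 h the signals were 2772, 2459, 2816 and 2702. They were 1719, 2395, 1695 and 2466 at 96 h, and 1227, 1302, 858.4 and 2401 at 168 h. No 168 h array reached the lowest at 72 h. The 168 h mean was 0.98 ± 0.19 lower than the 72 h mean (adjusted p = 0.011, 4 of 4 arrays). This difference is uncorrelated with the mean that chose the members only if both groups spread alike. The Ces1c signals had an SD of 159.1 at 72 h and 664.7 at 168 h, so the choice may have favoured this step.

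Cyp2c12, a steroid hydroxylase found mainly in female rat liver, varied widely before treatment. Its controls were 1398, 2573, 627.9 and 167.8, more than the spread of most members. Late arrays ran from 63.09 to 1578 with a median of 195.3, and 4 of 12 lay below the lowest control. The difference was -1.61 ± 0.54, and -1.06 without control replicate 2. Gstt3, a theta-class glutathione transferase, was close to this in overlap: its controls ran from 323 to 1118 and its late arrays from 141.7 to 706, with a difference of -0.89 ± 0.40. In the list of drug and steroid metabolism, 35 further tested genes held 11 higher (4.84% of all probe sets) and 4 lower (6.02%) at 72-168 h. Those higher included the sulfotransferase Sult1a1 (2.70 ± 0.32) and Cyp2c11 (1.37 ± 0.33), and those lower Cyp2a2 (-1.52 ± 0.33) and Adh4 (-1.51 ± 0.22).

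**Figure D2:**
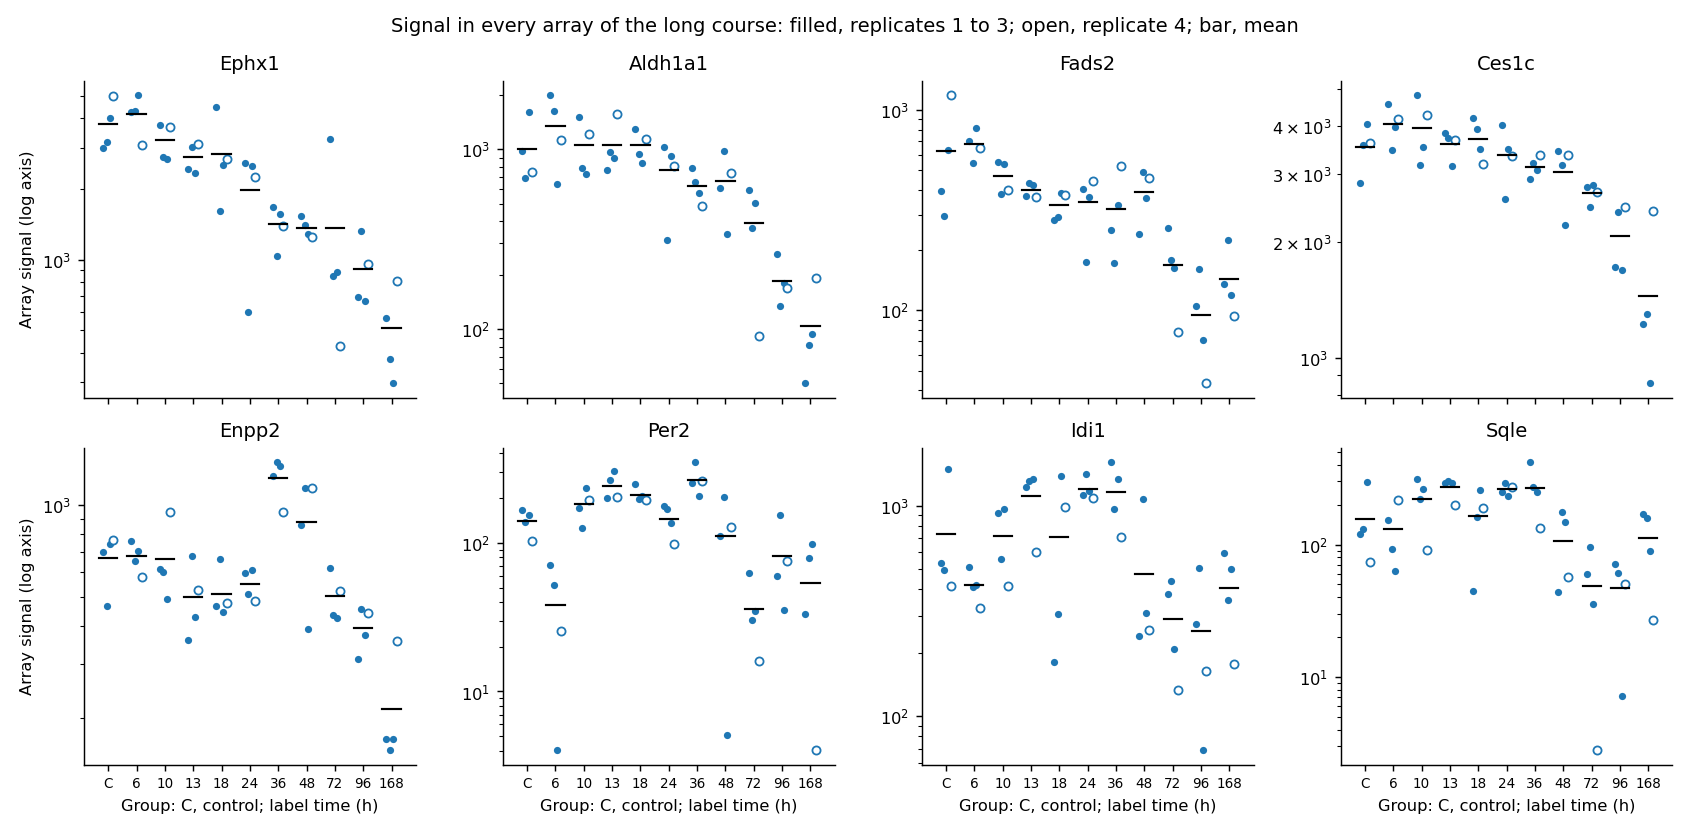
Signal of 8 members in each of the 44 long-course arrays, on a log axis, by group (C, control; label time in h). Filled points are replicates 1 to 3, open points replicate 4 and bars group means. Aldh1a1 at 72-168 h lies below all controls, Enpp2 is highest at 36 h (944.1 to 1377), and Idi1 and Sqle are lowest at 72-96 h.

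Fads2, the desaturase that starts the conversion of dietary polyunsaturated fatty acids to longer ones, was the lowest of the lipid enzymes. Its control signals were 396, 294.6, 634.3 and 1184. At 6 h they lay between 545.6 and 813.2, and at 18 h between 282.4 and 385.5. At 72 h they were 258.6, 178, 162.5 and 77.61, and at 96 h 105.4, 160.3, 71.04 and 43.26. No late array reached a control, and the late difference was -1.89 ± 0.26, with a mean signal of 21.7% of control. Within the first day the 18 h mean was 0.95 ± 0.32 below the 6 h mean, which missed the threshold (adjusted p = 0.0718), although all 4 arrays at 18 h lay below all 4 at 6 h.

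Of the 18 other tested genes of fatty acid synthesis and desaturation, 6 were higher (4.84% of all probe sets) and 1 lower (6.02%) at 72-168 h, 11 did not pass, and the median was 0.46. Higher were Lpin1 (3.02 ± 0.35), Acaca (2.03 ± 0.34), Fasn (1.87 ± 0.42), Thrsp (1.81 ± 0.36), Pklr (1.19 ± 0.38) and Dgat2 (0.80 ± 0.17). The lower gene was Fads1 (-1.23 ± 0.39), the other desaturase of the same chain, which stood at -1.30 at 6-18 h already.

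Cyp4a1 and Cyp4a3 hydroxylate the end carbon of fatty acids and are targets of the lipid sensor PPARα. Their group differences from control were close from 24 h on, but at 10 h Cyp4a1 was at -0.67 and Cyp4a3 at 0. Cyp4a1 controls were 2174, 2755, 1391 and 913.9, and its 168 h arrays 610.7, 553.2, 477.7 and 654.8. Cyp4a3 controls were 3094, 2312, 1691 and 954.9, and its 168 h arrays 627.9, 590.3, 794.6 and 642. At 168 h no array reached a control in either gene, whereas at 72 and 96 h arrays of both overlapped the lowest control. Their late differences were -0.99 ± 0.20 and -1.04 ± 0.25. From 24 to 48 h they differed by -0.69 ± 0.25 (adjusted p = 0.198) and -0.81 ± 0.30 (adjusted p = 0.239), short of the threshold. Of the 16 other tested genes of fatty acid oxidation, Cpt2 was higher (1.00 ± 0.22) and Ehhadh (-1.84 ± 0.31) and Bdh1 (-1.58 ± 0.33) were lower at 72-168 h. The other 13 did not pass, and of all probe sets 4.84% were higher and 6.02% lower.

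The sterol enzymes Idi1 and Sqle had a course of their own. Idi1 isomerises isopentenyl diphosphate, and Sqle, squalene epoxidase, makes the precursor of the sterol ring. Idi1 controls were 535, 494.9, 1488 and 415.8. At 24 h its arrays were 1128, 1419, 1180 and 1085, and at 48 h 241.1, 1079, 308.3 and 256.6. Sqle was 121.1, 130, 295.4 and 73.86 in the controls, 247.6, 290, 233.2 and 272.4 at 24 h, and 43.91, 177, 148.9 and 56.93 at 48 h. For both genes all 24 h arrays lay above all 48 h arrays. The step from 24 to 48 h was -1.56 ± 0.49 for Idi1 (adjusted p = 0.106) and -1.21 ± 0.42 for Sqle (adjusted p = 0.181), neither past the threshold over all probe sets. Without 48 h replicate 2 the Idi1 step was -2.04 (adjusted p = 0.0305).

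Late differences were -1.13 ± 0.40 for Idi1 and -0.95 ± 0.35 for Sqle, and without control replicate 3, the highest control of both, -0.74 and -0.64. A second Idi1 probe set had a late difference of -0.92 and stood just outside the early limit (-0.30). Among the 17 other tested genes of cholesterol synthesis and uptake, 3 were lower (6.02% of all probe sets) and none higher (4.84%) at 72-168 h. The other 14 did not pass, and the median was -0.48. Those lower were Msmo1 (-1.76 ± 0.34), Cyp51 (-0.99 ± 0.32) and Tm7sf2 (-0.76 ± 0.21). Erlin1, an endoplasmic reticulum membrane protein that helps degrade inositol trisphosphate receptors, lay between 256.8 and 432.1 in the late arrays, below all controls (458.3 to 1094), with a difference of -0.81 ± 0.14.

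Deviations of arrays from their own group means showed which members varied together within groups. Over the 44 arrays, r was 0.79 for Idi1 with Sqle (rho 0.77) and 0.73 for Cyp4a1 with Cyp4a3 (rho 0.66). Without the 2 arrays farthest from the median r was 0.76 and 0.70, and among the 29 low-spike arrays 0.86 and 0.66. Permutation p-values (two-sided, 100000 draws) were 1e-05, the smallest such draws can give, and 3e-05, or 2e-05 and 5e-05 after adjustment over 8 pairs. Arrays share scaling and hybridisation, so such pairs also share array-wide deviations.

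The enzymes of phospholipid breakdown, Enpp2 and Pla1a, differed in shape. Enpp2, or autotaxin, makes lysophosphatidic acid. Its controls were 700.8, 466.5, 745.1 and 765.1. At 36 h its arrays were 1246, 1377, 1345 and 944.1, all above every control, and at 72 h they were 620.4, 436.5, 425 and 522. At 168 h they were 170.8, 156.7, 171 and 357.8, below every control and every 72 h array. The step from 72 to 168 h was -1.17 ± 0.24 (adjusted p = 0.0123, 4 of 4 arrays below the 72 h mean). The late difference of -0.88 ± 0.20 is therefore a mean over unequal groups, from -0.39 at 72 h to -1.56 at 168 h.

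Enpp2 and Ces1c were the members past the threshold from 72 to 168 h, 2 of 25 and both lower, where 0.558% of all probe sets passed (0.216% as lower). With the spike-in level as a block the steps were -1.16 (adjusted p = 0.0195) for Enpp2 and -0.98 (adjusted p = 0.0132) for Ces1c. The spike-in level was uneven between these times: 72 h had 1 high and 3 low arrays, and 168 h had 3 high and 1 low. Within the low-spike arrays the steps were -1.36 and -1.11, and within the high-spike arrays -1.17 and -0.94. In each of these smaller sets 1 of the times has a single array, so they cannot decide whether the steps depend on the spike-in level. Both calls ended without 168 h replicate 2 (adjusted p = 0.0722 and 0.0595) or 168 h replicate 3 (adjusted p = 0.098 and 0.122), and that of Enpp2 also without 72 h replicate 1 (adjusted p = 0.0607).

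Pla1a, a phospholipase that cleaves phosphatidylserine, had controls of 537.5, 366.6, 204.6 and 98.61. Its late arrays ran from 8.026 to 154.2 with a median of 98.73, so 6 of 12 lay below the lowest control, replicate 4. The difference was -1.33 ± 0.27, or -1.71 without that control. Claudin-3, encoded by Cldn3 and a seal of tight junctions, had controls of 474.4, 400.8, 288.2 and 378.3 and late arrays from 59.3 to 301.3. Of these 12 arrays, 10 lay below the lowest control, and the difference was -1.19 ± 0.20.

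The matrix members, biglycan (Bgn) and type III collagen (Col3a1), had their lowest group mean at 36 h, before the late window. For Col3a1 the 168 h mean was nearly the same (-1.06, against -1.07 at 36 h). Bgn controls were 297.6, 286.9, 238.6 and 355.9, and its 36 h arrays 112.4, 108, 34.35 and 21. Its late arrays ran from 41.67 to 276.4, with 11 of 12 below the lowest control. Col3a1 controls were 694.7, 977, 770.3 and 1162, its 36 h arrays 361.4, 406, 392.9 and 457.4, and its late arrays 283.3 to 879.2. Late differences were -1.05 ± 0.27 for Bgn and -0.87 ± 0.22 for Col3a1, and 24-48 h differences -1.17 and -0.78. For both genes the group means at 36 and 48 h lay below the late mean.

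Within the first day Col3a1 was 0.93 ± 0.27 lower at 18 h than at 6 h (adjusted p = 0.0348). The 18 h arrays were 486.7, 294.6, 740.5 and 761.9, and the 6 h arrays, 1175, 1062, 916.4 and 1057, all lay above them. This call ended without 18 h replicate 1 or 2 or without any one of the 6 h arrays (adjusted p = 0.0523 to 0.198). Bgn and Col3a1 deviated together over arrays (r 0.43, rho 0.47, permutation p = 0.004, adjusted p = 0.005).

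Of 24 other tested matrix genes, 22 did not pass at 72-168 h, and Nid1 (-0.66 ± 0.19) and Lum (-0.48 ± 0.16) were lower, where 6.02% of all probe sets were. Of 9 other stellate cell and fibroblast markers, Reln (-0.50 ± 0.15) and Lum were lower, none was higher and 7 did not pass, with a median of -0.37. Among those 7, Acta2 was at 0.04 ± 0.16, and decorin (Dcn) at 0.55 ± 0.22 (adjusted p = 0.105), with 10 of 12 late arrays above its control mean. The summed signal of that marker list, Col3a1 included, was 1617 to 2457 in the controls and 1131 to 1873 late. Mean signals of Des and Lrat were 92.2 and 102.5 in the controls and 72.69 and 68.13 late. Their part in the matrix values was not tested.

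Myl11, the regulatory light chain of fast skeletal muscle myosin, and a probe set of the tropomyosin gene Tpm1 varied with skeletal muscle transcripts from array to array. Myl11 controls were 6.598, 371.6, 522.4 and 636.8, and those of the Tpm1 probe set 16.53, 287.2, 316.5 and 456.8. Acta1, skeletal muscle actin, was 7.379, 1802, 2207 and 3964 in the same 4 arrays, so control replicate 1 was low in all 3. Late arrays of Myl11 ran from 2.283 to 549.6, with the highest in 168 h replicate 4, where Acta1 was 3538. Late differences were -1.35 ± 0.69 and -1.13 ± 0.59, with errors above those of the other members. Without control replicate 1 they were -2.30 and -1.87.

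Over the 44 arrays the deviations of Myl11 from its group means had r 0.93 with those of Acta1 and 0.94 with those of Tpm1, and Tpm1 had r 0.92 with Acta1 (rho 0.93 to 0.96, permutation p = 1e-05 each, adjusted p = 2e-05). Without control replicate 1 the 6-18 h differences were -1.01 for Myl11 and -0.70 for Tpm1, outside the rule's band. The skeletal muscle list, drawn up after these values were seen, had 16 other tested genes. Of these, Myh1 was higher at 72-168 h (0.68 ± 0.20), where 4.84% of all probe sets were, and none was lower. The median was -0.40. The list's summed signal was 2070 to 12200 in the controls and 3164 to 15150 late. The part of muscle RNA in these 2 members was not tested.

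Tpm3, another tropomyosin gene, did not follow them (r 0.01 with Myl11 and -0.10 with Tpm1). Its controls were 152.2, 258.4, 182 and 126.6 and its late arrays ran from 24.14 to 128.1, 11 of 12 below the lowest control, with a difference of -0.98 ± 0.24. At 18 h its arrays were 303.8, 263.1, 240.8 and 239, above all 4 at 6 h (181.3, 99.52, 176.2 and 51.88), a step of 0.98 ± 0.29 (adjusted p = 0.0365). That step missed the threshold when any 18 h array, or 6 h replicate 2 or 4, was left out (adjusted p = 0.0566 to 0.202), among the low-spike arrays alone (0.74, adjusted p = 0.215) and with no filter on low signal (adjusted p = 0.0531).

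The probe sets of Tpm1 and Tpm3 carry the array maker's mark for probes that can also match other transcripts. The other 8 tested Tpm3 probe sets had late differences between -0.21 and 0.13, and the 3 of Tpm1 between -0.72 and -0.61. Of the 25 other tested genes of the cytoskeleton list, 11 were lower at 72-168 h (6.02% of all probe sets), among them Lgals3 (-0.92 ± 0.22) and Krt8 (-0.80 ± 0.15), and none was higher. At 6-18 h 7 of them were lower (4.66% of all probe sets) and 1 higher, and at 24-48 h 10 were lower (2.64%). Of 8 tested Kupffer cell and macrophage markers, 3 were lower (6.02% of all probe sets) and none higher at 72-168 h: Clec4f (-1.38 ± 0.15), Cd68 (-0.81 ± 0.18) and C1qc (-0.50 ± 0.16). At 6-18 h 3 of the 8 markers were lower (4.66%) and at 24-48 h 5 (2.64%), and none was higher. Medians of the markers were -0.44 at 6-18 h, -0.58 at 24-48 h and -0.36 at 72-168 h. Their list's summed signal was 3067 to 3404 in the controls and 1597 to 3889 late, and its part in the cytoskeleton values was not tested.

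**Figure D3:**
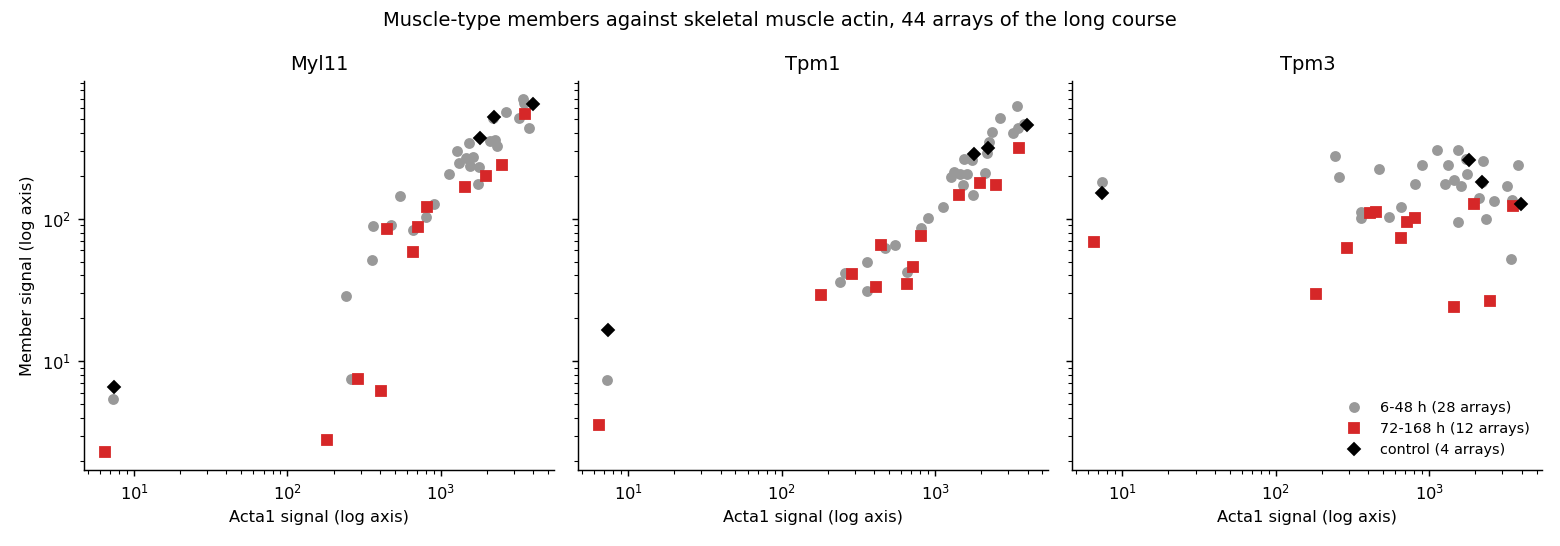
Signal of Myl11, Tpm1 and Tpm3 against skeletal muscle actin (Acta1) in the 44 long-course arrays, both axes logarithmic, with controls, 6-48 h and 72-168 h arrays marked. Myl11 and Tpm1 are low in the 3 arrays with the lowest Acta1 (6.501 in 96 h replicate 1, 7.33 in 48 h replicate 4 and 7.379 in control replicate 1), where Tpm3 lies between 68.88 and 181.2.

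Per2, a repressor of the circadian clock, met the early limit through opposite deviations. Its controls were 167, 138.7, 152.9 and 102.2. At 6 h its arrays were 71.39, 52.17, 4.022 and 25.47, all below every control, and at 13 h they were 200.1, 263.9, 302.5 and 203.5, all above. At 18 h they were 247.6, 196.4, 205.5 and 192.8. The 18 h mean was 1.89 ± 0.37 higher than the 6 h mean (adjusted p = 0.00113, 4 of 4 arrays). This held with the spike-in level as a block and among the low-spike arrays (1.87, adjusted p = 0.000905), and the value was 1.97 within the high-spike arrays, which are 1 a group.

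Late Per2 arrays ran from 4.067 to 152.8, and 11 of 12 lay below the lowest control, with a difference of -1.08 ± 0.30. At 36 h, between these low groups, all 4 arrays (205.3 to 346.8) lay above the controls. The labels used here give no clock time of sampling, so hours after dosing and hour of day cannot be told apart for this gene. Of 9 other tested clock genes, Dbp (-1.34 ± 0.26) and Nr1d2 (-0.76 ± 0.24) were lower at 72-168 h (6.02% of all probe sets). None was higher (4.84%), and 7 did not pass.

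Per2, Tpm3 and Col3a1 were the 3 members past the threshold from 6 to 18 h, where 5.84% of all probe sets passed (2.99% higher, 2.85% lower). The rule used the 24 and 48 h arrays only in the mean level over all arrays. From 24 to 48 h limma called none of the 25 (1.49% of all probe sets passed). At an unadjusted p under 0.05 there were 7, namely Idi1, Sqle, Cyp4a1, Cyp4a3, Col3a1 and Hmgn1 lower, and Enpp2 higher, where 11.2% of all probe sets were under it. None was called without 48 h replicate 1 either. The lowest adjusted p was 0.106. The median member difference was -0.20 against 0.02 over all probe sets, and 19 of the 25 were below 0.

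The remaining members were a small GTPase of growth signalling (Nras), a nuclear protein that loosens nucleosomes (Hmgn1), a phosphoribosyltransferase homologue (Prtfdc1), the non-coding host gene of small nucleolar RNAs Gas5, whose RNA can bind the glucocorticoid receptor, and ceruloplasmin (Cp), the copper-carrying ferroxidase of plasma. Nras controls were 212.6, 220.9, 207.5 and 56.71, and its late arrays ran from 32.27 to 119.4, of which 5 lay below that low replicate 4. Its late difference was -1.05 ± 0.29. A second Nras probe set had a late difference of -0.05 ± 0.14.

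Gas5 controls were 162.5, 186, 280.2 and 97.15 and its late arrays 11.81 to 141.7, with a difference of -0.89 ± 0.20. The late group means were not even, since all 4 arrays at 168 h (93.7 to 141.7) lay above all 4 at 72 h (48.02 to 88.38), a step of 0.55 ± 0.24 that missed the threshold (adjusted p = 0.394). Hmgn1 (-0.83 ± 0.24) and Prtfdc1 (-0.82 ± 0.19) had late arrays from 305.3 to 1084 and from 58.73 to 115.4, which overlapped their controls. Without control replicate 2 the Prtfdc1 difference was -0.49.

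Cp controls were 216.8, 323.8, 338 and 208.6 and its late arrays 53.25 to 206.1, all below every control, with a difference of -0.80 ± 0.17, at the limit of the rule. The 168 h arrays (111.5, 101.6, 53.25 and 124.2) lay below all 4 at 72 h (166 to 206.1), a step of -0.77 ± 0.21 (adjusted p = 0.0667) that passed without 168 h replicate 4 (-0.87, adjusted p = 0.0257) and with quantile normalization (-0.83, adjusted p = 0.0467). However, 2 far brighter Cp probe sets, with mean levels of 12.44 and 12.34 against 7.77, had late differences of 0.02 ± 0.19 and -0.02 ± 0.16. The low value therefore belongs to 1 dim probe set and was not seen across the gene.

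The limits of the rule passed close to some members. Just inside the late limit were Cp (-0.80), Erlin1 (-0.81) and Prtfdc1 (-0.82), and just outside Lcmt1 (-0.79), Jtb (-0.77) and Tm7sf2 (-0.76). Just inside the lower early limit were Cldn3 (-0.28), Cp (-0.27) and Fads2 (-0.27), and just outside Slc17a3 (-0.31), Abcc2 (-0.33) and the second Idi1 probe set. Near the upper early limit Sqle (0.29), Aldh1a1 (0.17) and Ces1c (0.12) were inside, and Kng2l1 (0.33) and Rbm3 (0.76) outside. In mean level Nras (7.07), Prtfdc1 (7.08) and Per2 (7.15) were inside, and Ccl5 (6.94), Gsta3 (6.83) and Esam (6.65) outside.

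Every late and early difference rests on the same 4 control arrays. When each control was left out in turn, the rule kept 14, 16, 15 and 13 of the 25 (replicates 1 to 4), and Bgn, Per2 and Tpm3 were kept each time. Leaving out a control moves the late and early differences of a gene by the same amount. The late limit has 1 side and the early band has 2, so the sides are not compared. In the late difference 13 members stayed at least 0.8 below control whichever control was left out, and 24 at least 0.5 below. The lowest fallers left the set through the early band, as with Fads2, whose early difference was -0.54 without control replicate 2 and 0.09 without replicate 4, while its late difference lay between -2.17 and -1.53.

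By individual arrays, 5 members (Aldh1a1, Fads2, Ces1c, Erlin1 and Cp) had all 12 late arrays below all 4 controls, as had 2.09% of the eligible probe sets. In 19 members all 12 lay below the control mean, and in Cyp2c12, Myl11, Tpm1, Per2, Sqle and Gstt3 10 or 11 did. The rule chose the members on these same arrays, so nothing is read from these counts. With the spike-in level as a block the median late difference was -0.95 in place of -1.04, and 21 members were at least 0.8 below control. Low-spike arrays alone gave a median of -1.12 with all 25 below 0. High-spike arrays alone, with 1 control, gave -0.81 with 24 below 0, and Cyp2c12 at 0.08. In that set Nras and Cyp4a1 were at -0.13, Cyp4a3 and Gstt3 at -0.16, Prtfdc1 at -0.22 and Gas5 at -0.26, against -3.37 for Fads2 and -3.13 for Ephx1.

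**Figure D4:**
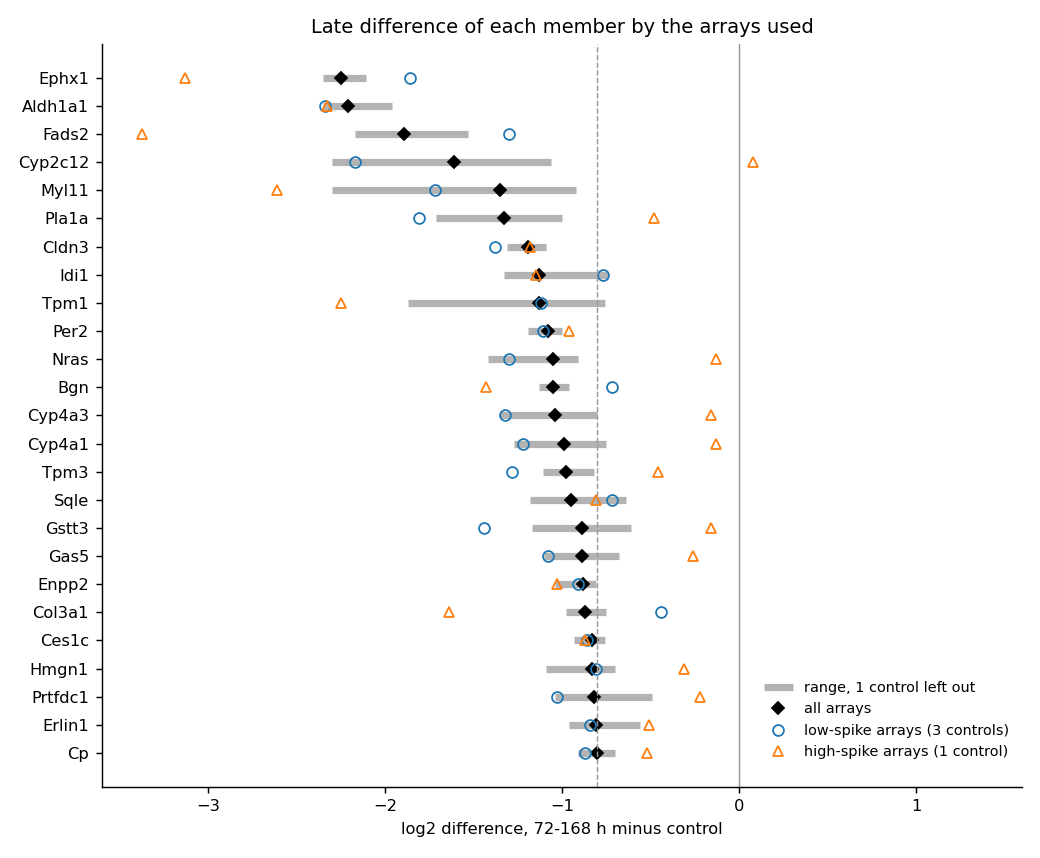
Late difference of each member (log2, 72-168 h minus control) from all arrays, from the 29 low-spike arrays, from the 15 high-spike arrays with their 1 control, and as the range when 1 control is left out. The dashed line is the rule's limit of -0.8; Ephx1, Aldh1a1 and Fads2 lie below it in every version shown, while high-spike arrays put Cyp2c12 at 0.08.

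The short course gives other arrays on which the same genes can be read. It held 20 of the 25 genes, each taken at its brightest probe set and matched by gene identifier, without Fads2, Gstt3, Hmgn1, Prtfdc1 and Erlin1. At 30-72 h (7 arrays) limma called 0 of the 20, where 0.0981% of all 6118 probe sets passed, with 2 at an unadjusted p under 0.05, as were 4.99% of all probe sets. The median was -0.03, against 0.03 over all probe sets. Ephx1 was at -0.08 ± 0.24 and Aldh1a1 at -0.23 ± 0.30. The lowest values were those of Cyp2c12 (-1.39 ± 0.55, adjusted p = 0.692, 6 of 7 arrays below the control mean) and Ces1c (-0.71 ± 0.19, adjusted p = 0.149), which passed without 30 h replicate 2 (-0.87, adjusted p = 0.0292). The window mean averages unequal times: Per2 was at 1.5 at 30 h and -1.07 at 72 h, and Pla1a at 0.75 and -0.82. In the long course 9 members were lowest at 96 h and 9 at 168 h, times without a short-course counterpart. At 72 h, which both courses hold, the long-course median was already -0.98, and 4 members were lowest there. The rule used that long-course group, so its low median was favoured by the choice of members.

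At 4-8 h (17 arrays), where the long course has its 6 h group, 10 of the 20 passed, 6 higher and 4 lower, where 26.8% of all probe sets passed (16.3% higher, 10.5% lower). Both leading fallers of the long course were lower here. Ephx1 was 12270, 6446, 11320 and 12400 in the short-course controls and 3069 to 8093 at 4-8 h with a median of 4831. Its difference was -1.05 ± 0.21 (adjusted p = 0.000372, 17 of 17 arrays below the control mean). Aldh1a1 was 8445, 3863, 6899 and 7047 in the controls and 758.7 to 6022 with a median of 3092 at 4-8 h, a difference of -1.21 ± 0.27 (adjusted p = 0.00108, 17 of 17). Both groups of arrays overlapped through control replicate 2. At 30-72 h the medians were 8745 and 5520, and these arrays overlapped the controls.

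Enpp2 (-0.85 ± 0.30) and Ces1c (-0.55 ± 0.17) were also lower at 4-8 h. The Enpp2 call ended without control replicate 1 (adjusted p = 0.226), control replicate 3 (0.0704) or 5 h replicate 2 (0.0603), and that of Ces1c without control replicate 3 (0.0507) or 4 (0.0818). Array weights also ended the Enpp2 call (0.0944), and quantile normalization (0.0597) and the mean over probe sets (0.0754) that of Ces1c. In the long course at 6 h the same genes stood at 0.03 and 0.20, and Ephx1 and Aldh1a1 at 0.15 and 0.37. Levels are not compared between courses, which were scaled apart on different arrays, and the difference between courses was not tested.

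Pla1a showed the largest rise of the 20. Its short-course controls were 141.1, 1622, 590.1 and 279.3, and its 4-8 h arrays ran from 1681 to 5550 with a median of 3795, so no array overlapped. The difference was 2.84 ± 0.42 (adjusted p = 9.82e-06, 17 of 17 arrays). It was 2.00 ± 0.43 at 0.25-2 h (adjusted p = 0.00345, where 7.13% of probe sets passed as higher) and -0.04 ± 0.47 at 30-72 h. In the long course Pla1a was at -0.45 at 6 h.

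Sqle (0.87 ± 0.26), Cyp4a3 (0.65 ± 0.23), Gas5 (0.57 ± 0.18), Tpm1 (0.51 ± 0.16) and Tpm3 (0.42 ± 0.11) were higher at 4-8 h too. Several of these calls rested on 1 array: Sqle missed without control replicate 2 (adjusted p = 0.0654), Cyp4a3 without control replicate 3 or 4 or 5 h replicate 2 (0.131, 0.346 and 0.0546), Gas5 without control replicate 1 or 4 (0.136 and 0.0646) and Tpm1 without control replicate 3 (0.22). Tpm1 probe sets disagreed, since 2 dimmer ones were lower (-1.41 ± 0.25 and -0.91 ± 0.21). Their mean with the others was -0.34. Median centring ended the calls for Tpm3 (0.30, adjusted p = 0.0643), Gas5 (adjusted p = 0.0504) and Cyp4a3 (adjusted p = 0.0798). Quantile normalization ended that of Cyp4a3 (0.0696), array weights that of Sqle (0.051) and the mean over probe sets that of Gas5 (0.0887). The calls for Ephx1, Aldh1a1 and Pla1a held under every alternative run and whichever array was left out.

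**Figure D5:**
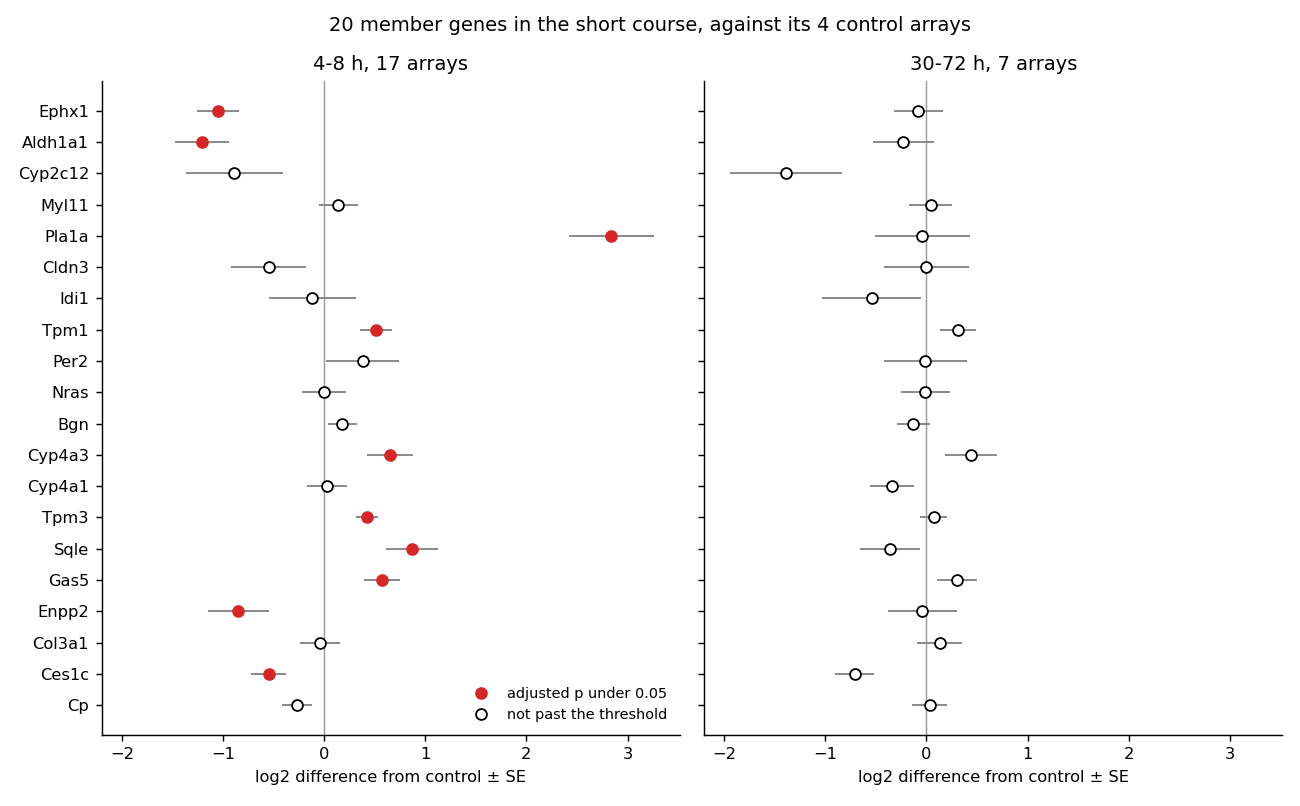
Difference from control (log2 ± SE) of the 20 member genes in the short course at 4-8 h (17 arrays) and 30-72 h (7 arrays), each against 4 controls. Filled red points passed an adjusted p of 0.05: 10 at 4-8 h, from -1.21 for Aldh1a1 to 2.84 for Pla1a, and none at 30-72 h.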

How the data were processed

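Liver RNA was read on 44 arrays of the long course (15923 probe sets) and 47 of the short course (8799). Each deposited value is an intensity, a linear signal per probe set scaled by the authors to a 2% trimmed mean of 150 (long) or about 801 (short), as the values themselves show. One short-course array at 150 was rescaled here. The sources used here do not name the array software, probe summary or scaling step, and the tables hold no detection calls.

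The constant 32 was added before log2, which understates changes of dim probe sets. Control probe sets and those under the 30th percentile of average signal were dropped. With limma 3.58.1 (R 4.3.3), 1 mean per group was fitted to all arrays of a course, with a moderated variance that followed the signal. The Benjamini-Hochberg adjustment covered 11106 (long) and 6118 (short) probe sets, and an adjusted p under 0.05 counts as passed. The code was tested on simulated data. Array numbers limit the precision. Windows are unweighted means of their times.

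Members and gene lists were chosen with earlier results of these data known. The text names members: the 20 with the lowest late difference, those in a list, those past a threshold in a test, and the 3 nearest each limit on either side. List genes outside the members stand for their brightest probe set. Tests of 48 against 24 h used arrays that entered the rule only through the mean level over all arrays. Those of 168 against 72 h and 18 against 6 h are uncorrelated with the means the rule used only if the compared groups spread alike. The short course is other arrays. All 25 members matched current RefSeq symbols by gene identifier. Alternatives were other constants and scalings, no filter, array weights, replicate and spike-in blocks, each spike-in part alone and left-out arrays. Averaging the probe sets of a gene was added after seeing the data.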

Additional observations from a re-analysis of the deposited data

Results flagged for a closer look

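Dixon's criterion was applied to the array signals before log2, in 100 groups of 4 arrays (25 members in controls, 72, 96 and 168 h). In 10 of them 1 array stood apart from the other 3. Chance gives about 1 in 20 for normally distributed values, which these linear signals were not shown to be. No excess is therefore read from the count. At 72 h replicate 1 was high for Ephx1 (3270, others 429.3 to 882), Cldn3 (288.5, others 159.1 to 176.3) and Prtfdc1 (114.7, others 71.58 to 76.97). At 96 h replicate 2 was high for Cyp2c12 (1578, others 63.09 to 195.8) and Prtfdc1 (78.73, others 58.73 to 61.91), and replicate 1 for Cyp4a1 (1517, others 927.3 to 1023). At 168 h replicate 4 was high for Tpm1 (314.5, others 41.24 to 75.3) and Enpp2 (357.8, others 156.7 to 171). Among controls, replicate 3 was high for Idi1 (1488, others 415.8 to 535) and replicate 4 low for Nras (56.71, others 207.5 to 220.9).

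At 72 h, a time both courses hold, 6 of the 20 genes read in both, each by 1 probe set per course, lay below control in all 4 long-course arrays and above control in both short-course arrays. The log2 differences were -1.83 for Ephx1 (short-course arrays 0.07 to 0.33), -0.87 for Tpm1 (0.34 to 0.59), -0.98 for Cyp4a3 (0.56 to 0.60), -0.83 for Tpm3 (0.15 to 0.18), -1.0 for Gas5 (0.09 to 0.63) and -0.46 for Cp (0.24 to 0.81). Other probe sets of these genes differed: at 72-168 h of the long course 2 brighter ones of Cp were at 0.02 and -0.02 and 8 of Tpm3 between -0.21 and 0.13, and at 72 h of the short course 2 of Tpm1 were at -0.39 and -0.21. Further genes lay below control at 72 h in both courses. Long-course and short-course values were -1.92 and -2.75 for Cyp2c12, -1.37 and -1.07 for Per2, and -1.56 and -0.82 for Pla1a. They were -1.18 and -0.79 for Idi1, -1.24 and -0.59 for Sqle, and -0.39 and -0.58 for Enpp2. The rule used the long-course 72 h arrays, so low values there were favoured by the choice of members. Short-course arrays had no part in that choice. The difference between courses was not tested. Choice of members, array design, probe sets and any difference in treatment between the courses cannot be told apart.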

How the results depend on the processing

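The number of members, 25, was 20 to 25 under added constants of 16 and 64, quantile normalization, median centring, the replicate block, the spike-in block, each spike-in part alone and the relabelled 96 h array, and 19 to 29 with 1 array left out. It was 13 with a late limit of -1.0, 13 with an early band of 0.2 and 14 with a mean level of 8. Few were the same genes in each spike-in part: 12 of the 25 in low-spike and 2 in high-spike arrays, where the late difference of Cyp2c12 was 0.08. From 72 to 168 h, called members numbered 4 with the replicate block, which added Aldh1a1 (-1.50, adjusted p = 0.0495) and Cp (-0.77, adjusted p = 0.0444), 0 in low-spike arrays alone, 0 in high-spike arrays alone and 0 to 4 with 1 array left out. From 6 to 18 h they numbered 5 with array weights, 0 in high-spike arrays alone and 1 to 2 with 1 array left out, and from 24 to 48 h 0 to 1. In the short course they numbered 0 to 1 at 30-72 h and 6 to 10 at 4-8 h with 1 array left out, and 8 at 4-8 h with the replicate block. The mean over probe sets put Tpm1 at -0.34 at 4-8 h (adjusted p = 0.0707). Same-numbered arrays did not deviate together in every pair (r from -0.18 to 0.24 in the long course and -0.37 to -0.04 in the short), so the numbers were not taken to pair arrays, and the block results are given here alone. In the long course the number is tied to the spike-in level, since replicate 4 was high in all 11 groups, so a replicate block takes up part of that level. High-spike arrays are few, and 1 to 3 a group; apart from that, the cause was not tested. Short-course spike levels, 8.166 to 8.928, had no gap, so that batch was not run there. Dim signals, under about the added constant of 32, have no detection call and little order.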
